A study of Mus musculus with 77 samples.

Results

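Translation initiation and elongation factors are the proteins that bring an mRNA, the initiator tRNA and the ribosomal subunits together and then move the ribosome along the message. The members were every probe set with a single annotated gene symbol beginning Eif1 to Eif6 or Eef1 to Eef2, without the Eif2ak kinases, which phosphorylate eIF2 but are not factors themselves. This gave 142 of the 45101 probe sets on the array and 54 genes, of 18194 genes with a single-symbol probe set. All 54 genes and 121 of the 142 probe sets lay above the minimum level used for testing. Eif1, Eif2s1 and Eif4g1, which belong to the same machinery, were not analysed here.

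The samples were 77 Affymetrix mouse arrays, each from 1 male C57BL/6J mouse (9 to 14 weeks old, per the labels), and each holding polysome-bound mRNA pulled out of dorsal striatum by translating ribosome affinity purification. In this method a green fluorescent tag on ribosomal protein L10a is expressed from a bacterial artificial chromosome in 1 cell type, and tagged ribosomes are captured with their mRNA. The Drd1 line tags direct-pathway spiny projection neurons (dSPN) and the Drd2 line tags indirect-pathway ones (iSPN); regulatory sequences of Drd2 are also active in cholinergic interneurons. All mice were hemizygous for a transgene, each type from 1 line, and lesioned mice were kept only if turning and limb use showed a successful lesion. Mock mice received vehicle in the right medial forebrain bundle and saline afterwards (10 dSPN and 10 iSPN arrays). Lesioned mice received 6-hydroxydopamine there at 3.2 µg/µl, which destroys dopamine axons, and then saline (11 dSPN and 7 iSPN arrays), low-dose levodopa (12 and 8) or high-dose levodopa (11 and 8). The low dose began at 1 mg/kg (days 1 to 3) and ended at 2 mg/kg (days 4 to 9), and the high dose went from 3 to 6 mg/kg over the same days, both with 12 mg/kg benserazide, an inhibitor of peripheral levodopa breakdown. Values are log2 expression values; a difference of 1 is a doubling. Because a value depends on the probes, levels are compared between groups for a gene and never between genes. More mRNA in the cell and more of an mRNA on ribosomes cannot be told apart in these samples. Nor can fewer cells of a type and less RNA per cell. Saline mice received no benserazide, so an effect of levodopa here is that of levodopa given with benserazide. The parts of these drugs cannot be told apart.

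Cap-dependent initiation proceeds in steps. eIF4E binds the cap and, with the scaffold eIF4G and the helicase eIF4A, recruits the small subunit, which carries eIF1, eIF1A, eIF3 and eIF5 and an eIF2 complex holding the initiator tRNA. eIF2B recharges eIF2 with GTP, eIF5B joins the large subunit, and eEF1 and eEF2 then drive elongation. In striatal neurons dopamine D1 receptors feed signalling pathways that act on several of these proteins by phosphorylation, which arrays do not measure.

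Levodopa changed the factors in dSPN, in both directions. At the high dose 18 of 54 genes rose and 11 fell against lesioned mice given saline, and at the low dose 17 rose and 10 fell (limma, adjusted p under 0.05 over all 13271 genes tested, here called). That is 53.7% of the factors at the high dose, beside 45.6% of all genes tested (20.1% higher and 25.5% lower), and 50% at the low dose, beside 34.1% (15.1% higher and 19% lower). The median change of the factors was 0.05 at both doses, against -0.04 for all genes tested, and their median absolute change at the high dose was 0.28, against 0.30 for all genes. On the brightest probe set of each gene, only Eef1e1 changed by more than 1 on the log2 scale, a doubling. Of all genes tested, 10.1% were called with a change over 2-fold at the high dose and 4.94% at the low dose. Dimmer probe sets of Eif4a1 (1.16), Eif4e2 (1.3), Eif4ebp2 (1.27) and Eif4e3 (-1.09) were also called with changes beyond 1 at the high dose. Centring each array on the median of the tested genes gave 23 higher and 9 lower at the high dose and 20 and 6 at the low dose. In iSPN 4 factors rose and 1 fell at the high dose (9.26%, against 9.86% of all genes, 6.27% higher and 3.59% lower), and 1 rose and 1 fell at the low dose (3.70%, against 4.18%, 2.41% higher and 1.77% lower). The lesion itself moved no factor past the threshold in dSPN and 3 in iSPN.

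**Figure D1:**
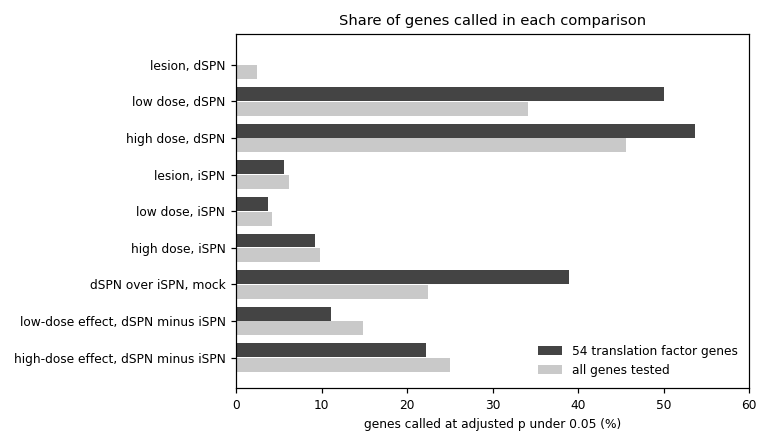
Percent of genes called at adjusted p under 0.05 in each comparison (horizontal axis), for the 54 translation factor genes (dark bars) and for all 13271 genes tested (light bars). The factors reached 50% and 53.7% with levodopa in dSPN, where 34.1% and 45.6% of all genes were called.

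Because many mRNAs of the translation machinery share features of their start sites, the annotated promoters of the members were read from RefSeq (GRCm38.p6), which held 43 of the 54 genes. A start like that of terminal oligopyrimidine mRNAs, the class controlled by mTOR and LARP1, was defined as a C followed by at least 4 bases of C or T, beginning within 3 bases of the annotated start on the sense strand. It was found in 8 of 43 factors (18.6%), in 15.1% of the genes tested here that the table holds, and in 26 of 65 ribosomal protein genes (40%). Of the 8, at the high dose in dSPN, 4 were called higher, none lower and 4 were not called. Of the other 35, 9 were higher, 9 lower and 17 not called. These counts rest on the annotated starts and on this definition. The 35 may therefore include genes whose mRNAs do begin in this way. Of all genes tested, 20.1% were higher and 25.5% lower, and calls were not counted for all genes with such a start. A link between start and call was not tested. The windows of 26 bases shown here run over the annotated start. Capitals mark the pyrimidine run from the first C that met the rule, and any C or T just before it is in lower case. They show an elongation factor, 2 subunits of the eIF3 scaffold, and the X- and Y-linked copies of the eIF2 gamma subunit.
Eef1a1 (chr9:78481709-78481734, minus strand): ctccgccCTCTTCCCgagggtggggg
Eif3f (chr7:108934405-108934430, plus strand): tctaggctCTCTCTCTTTCTCggcaa
Eif3b (chr5:140419295-140419320, plus strand): ggcgcgcggtgaCTTCTgggagtcgg
Eif2s3x (chrX:94212636-94212661, minus strand): gagcattttCCTTTTCTCTCCgagca
Eif2s3y (chrY:1010585-1010610, plus strand): ggccacagccaCTTCCTTCTTTCgtg
Eif3f and Eif3b rose with levodopa in dSPN, whereas Eef1a1 and Eif2s3x did not pass the test at the high dose.

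The palindrome CACGTG, the core of E-boxes bound by the Myc and USF families, was sought over the 300 bases from 250 before to 50 after the start. It was present in 12 of 43 factors (27.9%), in 11.4% of the tested genes in the table, in 8.1% of all genes in the table and in 6 of 65 ribosomal protein genes (9.2%). Of these 12 factors, 7 were called higher and 2 lower at the high dose in dSPN and 3 were not called. Of the 31 without it, 6 were higher, 7 lower and 18 not called. Of all genes tested, 20.1% were higher and 25.5% lower, and calls were not counted for all genes holding CACGTG. A link between CACGTG and call was not tested. The sequence TGACGTCA, a full cAMP response element, was found in 1 factor, Eef2 (2.3%, against 3.5% of the tested genes), which was not called in dSPN under levodopa. CACGTG is in capitals in the windows of factors that moved at the high dose; Eif4e holds 2 copies.
Eif4a1 (chr11:69672597-69672622, minus strand): atcgcctccgCACGTGtaaaggtgct
Eif4e, distal (chr3:138527030-138527055, plus strand): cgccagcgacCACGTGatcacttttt
Eif4e, proximal (chr3:138527194-138527219, plus strand): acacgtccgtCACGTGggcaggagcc
Eif3k (chr7:28981917-28981942, minus strand): ggaaggaaatCACGTGgtagacaaaa
Eif1b (chr9:120492572-120492597, plus strand): tgcggacggtCACGTGgcggcggcgc
Eef2k (chr7:120842790-120842815, plus strand): cggggacggcCACGTGagcccgggcg
The first 5 of these windows belong to 4 genes that rose, and the last to a gene that fell, so a shared CACGTG went with both directions. A match in a window describes the letters and not a bound site.

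Among the factors that select the start codon, Eif1b, a close relative of Eif1, which scans for AUG, rose with levodopa. In dSPN its lowest, median and highest values were 10.49, 10.94 and 11.13 in lesioned mice on saline, 10.95, 11.36 and 11.56 at the low dose, and 10.93, 11.41 and 11.49 at the high dose. Inside the saline range lay 1 of 12 low-dose and 1 of 11 high-dose arrays, and 12 of 12 and 10 of 11 lay above the saline median. The mean rose by 0.46 at the low dose (SE 0.07, limma adjusted p = 3.74e-07) and by 0.45 at the high dose (SE 0.07, adjusted p = 3.65e-07). It rose in iSPN too at the high dose, from a mean of 10.90 to 11.30 (change 0.40, SE 0.09, adjusted p = 0.00124). Eif1a, Eif1ad and Eif1ax, placed here by their symbols, also rose in dSPN, by 0.24 to 0.44 at the low dose and 0.32 to 0.36 at the high dose. Eif5, which triggers GTP hydrolysis by eIF2 once the start codon is found, went the other way on its brightest probe set, from a mean of 11.06 to 10.78 (change -0.28, SE 0.06, adjusted p = 8.10e-05). All 5 genes placed in this group were called at both doses in dSPN on their brightest probe sets. There 34.1% of all genes were called at the low dose and 45.6% at the high dose. With the mean of oligodendrocyte markers, described further on, as a covariate, Eif1b and Eif5 were called at both doses, while Eif1a, Eif1ad and Eif1ax were not (0.10, 0.04 and 0.19 at the high dose). With run, a grouping of the arrays also described further on, as a block, Eif1ad, Eif1ax and Eif5 were not called at the low dose.

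The eIF2 group delivers the initiator tRNA. Of its 5 genes none was called at the low dose in dSPN, and at the high dose Eif2s3y, the Y-linked gamma subunit, rose by 0.49 (SE 0.14, adjusted p = 0.00324) while Eif2a, an alternative initiator tRNA factor, fell by 0.25 (SE 0.10, adjusted p = 0.0285). Eif2a was not called with run as a block (adjusted p = 0.08), with arrays centred on the median of the tested genes (0.154) or with the oligodendrocyte covariate (0.168). Eif2s3y was called with the block but not with the covariate (0.42, adjusted p = 0.0733). Eif2d, which can place initiator tRNA without eIF2, was at -0.48 (adjusted p = 0.0519) on its brightest probe set, and 2 dimmer probe sets were called lower (-0.43 and -0.33). The median absolute change of the 5 genes was 0.25, against 0.30 for all genes. The beta subunit Eif2s2 and the X-linked gamma subunit Eif2s3x changed by -0.04 and -0.02, with 95% intervals of -0.15 to 0.07 and -0.18 to 0.14. These are the brightest probe sets; for Eif2s2 a dimmer one was called higher (0.32) and the dimmest lower (-0.62). Of the 5 eIF2B subunits, the catalytic one, Eif2b5, changed by 0.18 (-0.08 to 0.44, adjusted p = 0.262). Only Eif2b3 was called in dSPN, higher by 0.45 at the high dose (SE 0.16, adjusted p = 0.0136). With the oligodendrocyte covariate its change was 0.48 and not called (limma adjusted p = 0.066). Eif2b3 had a mean of 6.67 in lesioned iSPN on saline and 6.21 at the high dose (change -0.46), and the effect of the high dose differed between the lines by 0.91 (SE 0.25, adjusted p = 0.00323).

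The subunits of the eIF3 scaffold, which holds the small subunit complex together, did not all move the same way. Of 11 measured subunits, 5 rose (Eif3b, Eif3f, Eif3h, Eif3k and Eif3m) and 1, Eif3a, fell in dSPN at the high dose. That is 54.5% called, beside 45.6% of all genes tested. At the low dose Eif3e was also called higher (63.6%, beside 34.1%). With the oligodendrocyte covariate Eif3b (0.31, adjusted p = 0.0846), Eif3h (0.16, adjusted p = 0.278) and Eif3m (0.29, adjusted p = 0.119) were not called at the high dose. Within a single run Eif3b was not called either (0.33, adjusted p = 0.0517). Eif3f had lowest, median and highest values of 10.66, 10.82 and 10.97 in lesioned dSPN on saline, 11.04, 11.19 and 11.36 at the low dose and 11.08, 11.20 and 11.35 at the high dose. No treated array fell within the saline range at either dose (change 0.40, SE 0.06, adjusted p = 6.15e-08 at the high dose). In iSPN the medians were 10.63 on saline, 10.67 at the low dose and 10.73 at the high dose, and the ranges overlapped. The high-dose effect on Eif3f differed between the lines by 0.33 (SE 0.09, adjusted p = 0.00509). Eif3b, a core subunit, rose by 0.55 (SE 0.11, adjusted p = 3.06e-05), while Eif3a, the largest core subunit, went from 11.11, 11.36 and 11.62 on saline to 10.78, 10.95 and 11.20 at the high dose. All 11 high-dose arrays lay below the saline median for Eif3a (change -0.40, SE 0.08, adjusted p = 2.61e-05). The core subunit Eif3c was not called with levodopa in dSPN (0.04, interval -0.09 to 0.17), but in iSPN its brightest probe set rose with the lesion and fell with levodopa at both doses, 3 comparisons that share the 7 lesioned saline arrays. The other 3 probe sets of Eif3c were not called in any of them, and on the mean of the probe sets none was called (0.15, adjusted p = 0.156 for the lesion, -0.19, adjusted p = 0.0809 at the low dose, and -0.12, adjusted p = 0.265 at the high dose).

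**Figure D2:**
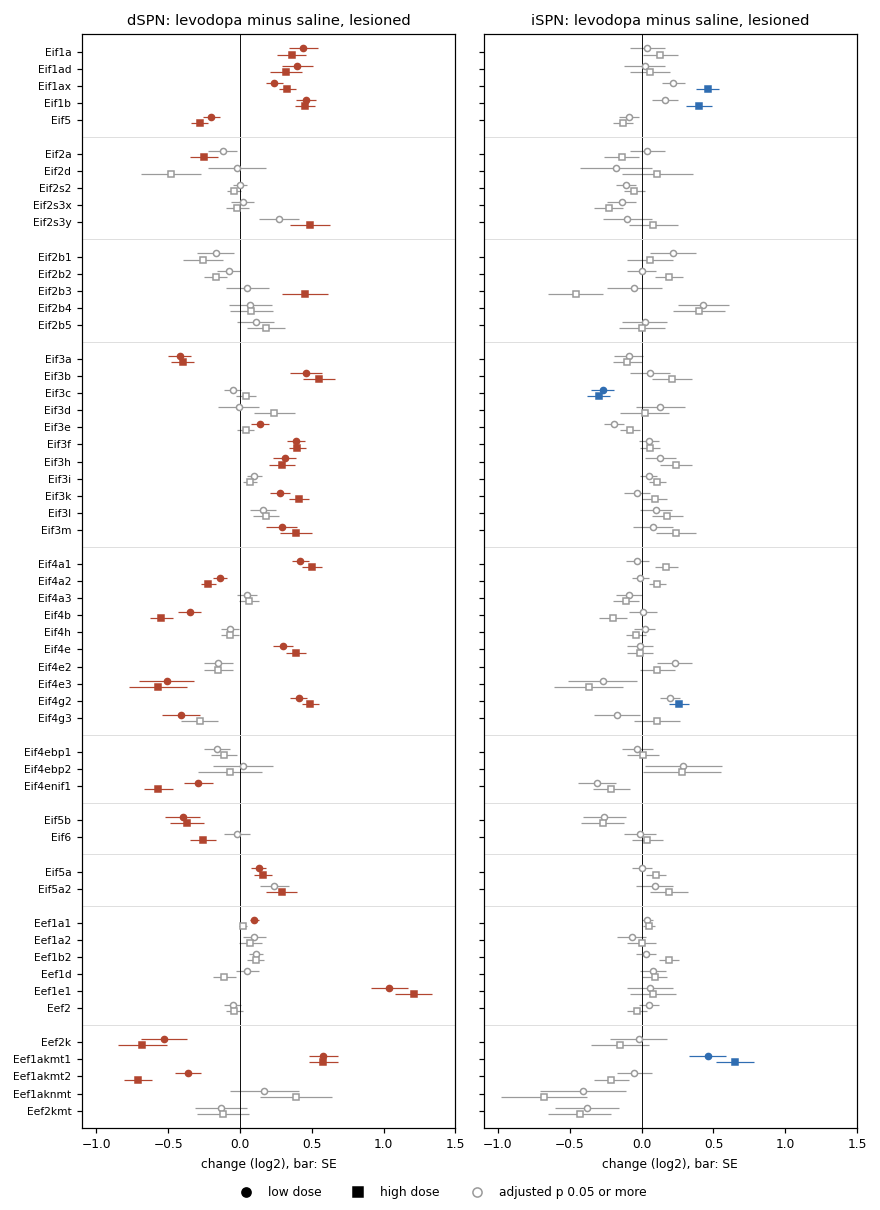
Change with levodopa in lesioned mice (log2, horizontal axis; bars, SE) for each of the 54 genes, in dSPN (left) and iSPN (right), at the low dose (circles) and the high dose (squares); filled symbols are called and grey lines part the roles. In dSPN 18 genes rose and 11 fell at the high dose; in iSPN 4 rose and 1 fell.

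The helicase paralogs Eif4a1 and Eif4a2, whose proteins both unwind the leader of the mRNA, changed in opposite directions in dSPN. Eif4a1 ran from 10.76 through a median of 10.99 to 11.07 in lesioned mice on saline, from 11.18 through 11.37 to 11.86 at the low dose, and from 11.25 through 11.46 to 11.63 at the high dose. The saline and treated ranges did not overlap at either dose, and the changes were 0.42 (SE 0.06, adjusted p = 2.10e-07) and 0.50 (SE 0.07, adjusted p = 1.13e-09). Eif4a2 ran from 11.98 through 12.18 to 12.22 on saline and from 11.80 through 11.91 to 12.09 at the high dose. All 11 high-dose arrays lay below the saline median, with 3 inside the saline range (change -0.22, SE 0.05, adjusted p = 0.000166). In iSPN neither gene was called at the high dose, with changes of 0.17 for Eif4a1 and 0.11 for Eif4a2. The high-dose effect differed between the lines for both, by 0.33 for Eif4a1 (SE 0.10, adjusted p = 0.0130) and by -0.34 for Eif4a2 (SE 0.08, adjusted p = 0.000671). With the oligodendrocyte covariate the difference for Eif4a1 was 0.26 (adjusted p = 0.0678) and not called, and that for Eif4a2 was called. Eif4b, which stimulates the helicase, fell in dSPN from a median of 11.10 on saline to 10.67 at the low dose and 10.47 at the high dose (high-dose change -0.55, SE 0.08, adjusted p = 2.07e-08). Eif4h, its relative, changed by -0.07 (interval -0.18 to 0.05).

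The cap-binding protein Eif4e rose in dSPN, from a median of 10.17 on saline (9.91 to 10.29) to 10.45 at the low dose (9.99 to 10.61) and 10.58 at the high dose (10.23 to 10.84). The high-dose change was 0.39 (SE 0.07, adjusted p = 4.82e-06), and in iSPN the change was -0.01, with a difference between the lines of 0.41 (SE 0.11, adjusted p = 0.00468). That difference was -0.02 on the next brightest probe set (adjusted p = 0.926) and 0.12 on the mean of the probe sets (adjusted p = 0.438). Eif4e3, a cap-binding relative, fell by 0.57 (SE 0.20, adjusted p = 0.0154), and Eif4e2, another, was at -0.15 on its brightest probe set (adjusted p = 0.215). Of its 4 dimmer probe sets 2 were called higher, by 0.65 and 1.3 at the high dose and 0.44 and 0.92 at the low dose, and their high-dose effects differed between the lines by 0.57 and 1.12. Eif4g2, also called DAP5, a scaffold that works without eIF4E, had values of 10.14, 10.40 and 10.55 on saline, 10.64, 10.75 and 10.95 at the low dose and 10.64, 10.85 and 11.21 at the high dose in dSPN. Again no treated array entered the saline range (high-dose change 0.49, SE 0.06, adjusted p = 1.23e-10). Eif4g2 also rose in iSPN at the high dose, from a median of 10.76 to 11.06 (change 0.26, SE 0.07, adjusted p = 0.0111), and no difference of effect between the lines was called. The scaffold Eif4g3 fell by 0.41 at the low dose (SE 0.13, adjusted p = 0.00994) and was at -0.28 at the high dose (adjusted p = 0.0724).

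Of the proteins that hold eIF4E back, Eif4enif1, the eIF4E transporter of repression granules, fell in dSPN from a median of 7.50 on saline to 7.13 at the low dose and 6.87 at the high dose. The high-dose change was -0.57 (SE 0.10, adjusted p = 4.30e-06), with all 11 arrays below the saline median. Eif4ebp1 and Eif4ebp2, which bind eIF4E when not phosphorylated, were not called on their brightest probe sets (-0.11 and -0.07 at the high dose). The brightest of Eif4ebp1 averaged 3.8, close to the minimum of 3.55 used for testing, so its lack of change says little. For Eif4ebp2 a dimmer probe set was called higher by 1.27 (adjusted p = 8.01e-05), and the others were not called. Eif5b, the GTPase of subunit joining, fell by 0.37 (SE 0.12, adjusted p = 0.00799) and Eif6, which keeps the large subunit apart, by 0.26 (SE 0.09, adjusted p = 0.0144). Eif5b was not called at the high dose with the oligodendrocyte covariate (-0.37, limma adjusted p = 0.0663) or at the low dose with run as a block (0.0618). Eif5a and Eif5a2, the hypusine-bearing factors that ease stalled ribosomes, rose by 0.16 (SE 0.06, adjusted p = 0.0125) and 0.29 (SE 0.11, adjusted p = 0.0201) at the high dose. Neither was called with run as a block (adjusted p = 0.0585 and 0.0973), within a single run (0.139 and 0.283) or with the oligodendrocyte covariate (0.0908 and 0.38).

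Most of the elongation factors proper did not pass the test in dSPN at the high dose. Eef1a1, which brings aminoacyl-tRNA to the ribosome, ran from 12.41 through 12.45 to 12.49 on saline and from 12.39 through 12.45 to 12.60 at the high dose (change 0.02, interval -0.05 to 0.09). The neuronal form Eef1a2 changed by 0.07 (-0.09 to 0.23), the exchange factor Eef1b2 by 0.11 (0.00 to 0.22) and the translocase Eef2 by -0.04 (-0.17 to 0.08). At the low dose Eef1a1 was called, higher by 0.10 (SE 0.03, adjusted p = 0.0125). Eef1e1 was the exception. Its product, AIMP3, is a part of the multisynthetase complex that carries the eEF1 name through its homology to that family. It ran from 8.96 through 9.28 to 9.48 on saline, from 9.93 through 10.29 to 10.63 at the low dose, and from 10.36 through 10.46 to 10.72 at the high dose, with a gap between saline and treated arrays. The fold was 2.06 at the low dose (change 1.04, SE 0.13, adjusted p = 5.70e-10) and 2.31 at the high dose (change 1.21, SE 0.13, adjusted p = 3.81e-12). In iSPN the medians were 9.09 on saline, 8.80 at the low dose and 8.88 at the high dose, with overlapping ranges, and the high-dose effect differed between the lines by 1.13 (SE 0.21, adjusted p = 1.62e-05).

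**Figure D3:**
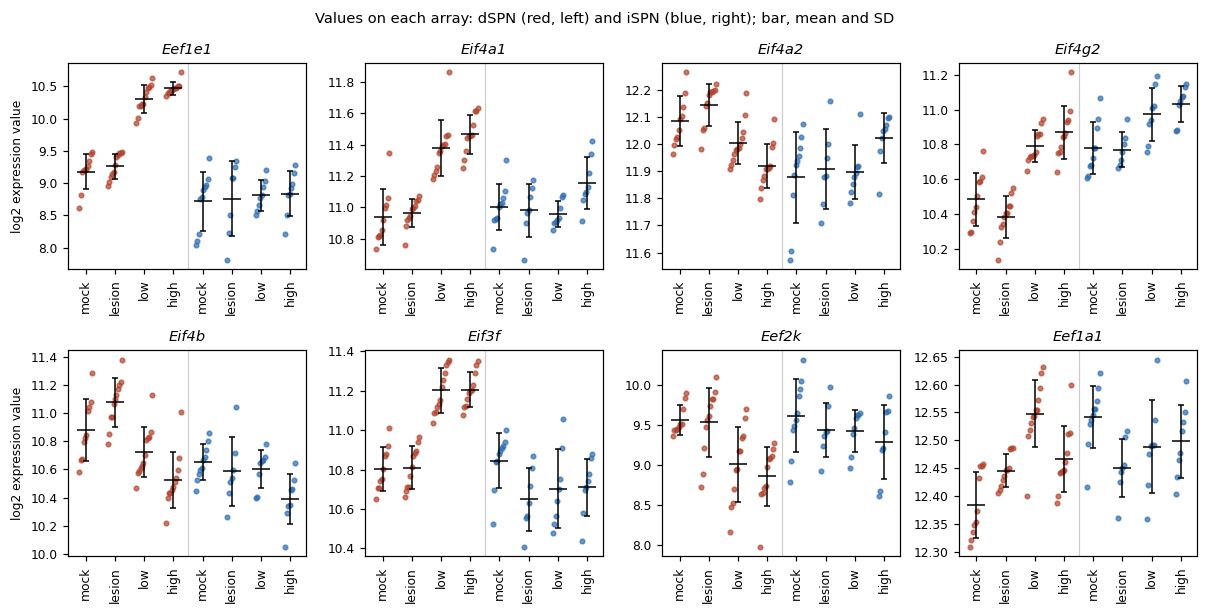
Log2 expression value of 8 genes on each array (points), by group, with the mean and SD (bars); dSPN groups are left of the grey line and iSPN groups right of it. The dSPN arrays of levodopa-treated mice lie above all lesioned saline arrays for Eef1e1, Eif4a1, Eif4g2 and Eif3f.

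Of 5 enzymes that act on elongation factors, 1 rose and 2 fell in dSPN at the high dose (60% called, beside 45.6% of all genes tested). Eef2kmt (-0.12) and Eef1aknmt (0.39) were not called on their brightest probe sets. Eef2k, the calcium-regulated kinase that inactivates eEF2, went in dSPN from 8.73, 9.62 and 10.11 on saline to 8.16, 9.06 and 9.70 at the low dose and 7.98, 8.98 and 9.28 at the high dose. The ranges overlapped, with 7 of 11 high-dose arrays inside the saline range, and the change was -0.68 (SE 0.17, adjusted p = 0.000457). A dimmer probe set of Eef2k was at 0.04 (limma adjusted p = 0.832), and the dimmest was called lower (-0.80). At the low dose Eef2k was not called with run as a block (limma adjusted p = 0.0983) or with the oligodendrocyte covariate (0.0979). Eef1akmt1, a lysine methyltransferase of eEF1A, rose from 9.45, 9.76 and 9.81 to 9.92, 10.29 and 10.50 at the high dose in dSPN, without overlap (change 0.58, SE 0.10, adjusted p = 2.38e-06). It rose in iSPN also, by 0.46 at the low dose (SE 0.13, adjusted p = 0.0186) and 0.65 at the high dose (SE 0.13, adjusted p = 0.000156). Eef1akmt2, another such methyltransferase, fell in dSPN from 9.75, 9.97 and 10.22 on saline to 8.87, 9.21 and 9.58 at the high dose (change -0.71, SE 0.10, adjusted p = 3.34e-09). It was also the only factor called between the doses in dSPN, lower by 0.34 at the high dose (SE 0.09, adjusted p = 0.0128; 6.8% of all genes were called); with run as a block no factor was called there. In iSPN no factor was called between the doses (limma; 8 at an unadjusted p under 0.05, and 0.173% of all genes called).

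Both doses were compared with the same lesioned saline arrays, so the lists of the doses share their controls. Eif2s3y, Eif2b3 and Eif5a2 were called higher at the high dose alone and Eif3e and Eef1a1 at the low dose alone, but none of these differed between the doses by the test of that difference.

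Probe sets of the same gene did not always agree. Of 34 factors with more than 1 tested probe set, 3 had probe sets called in both directions at the high dose in dSPN. All 3 probe sets of Eif4a1 rose (0.50, 0.83 and 1.16), as did all 3 of Eif4g2 (0.49, 0.33 and 0.45) and of Eef1akmt1, and all 3 of Eif4b (-0.55, -0.60 and -0.50) and of Eif5b fell. Eif5 had 1 probe set lower (-0.28), 1 higher (0.20) and 3 not called. Eif1ax had 1 higher (0.33) and 1 lower (-0.30), and Eif2s2 was the third. For Eif4e the 2 brightest probe sets gave 0.39 and 0.06, the latter not called. Eif4ebp2 had a called probe set at 1.27 among 4 that were not. At the level of probe sets, 33 of 121 were called higher and 24 lower at the high dose, where 44.9% of all 23974 tested probe sets were called. Probe sets whose names end in _s_at or _x_at, such as those used for Eif3m, Eif5a, Eef2k, Eif2b2 and Eef1d, can match more than 1 transcript by the array's design, and Eif2s3x and Eif2s3y are near copies of each other.

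**Figure D4:**
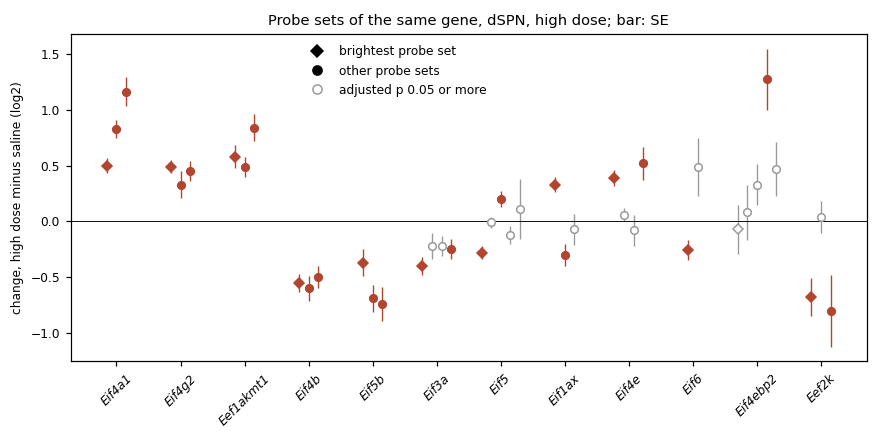
Change at the high dose in dSPN (log2, vertical axis; bars, SE) for every tested probe set of 12 factors, the brightest as a diamond; filled symbols are called. The probe sets of Eif4a1, Eif4g2, Eef1akmt1, Eif4b and Eif5b share a direction, and those of Eif5 and Eif1ax do not.

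The dSPN marker Drd1 and the iSPN marker Drd2 followed the labels: mean Drd1 was 11.80 in mock dSPN and 10.07 in mock iSPN, and mean Drd2 7.55 and 12.42. Markers of other cells moved with levodopa in dSPN. At both doses 11 of 13 oligodendrocyte markers and 7 of 14 astrocyte markers fell, and none of either was called in iSPN. At both doses 4 of 6 iSPN markers fell as well, with a list mean of 7.14 in lesioned dSPN on saline (6.75 to 7.37), 6.5 at the low dose (6.16 to 6.90) and 6.57 at the high dose (6.10 to 7.08). Of 9 markers shared by both kinds of spiny projection neuron, 7 fell and 2 rose at both doses. Their list mean ran from 11.56 to 11.65 on saline, 11.31 to 11.54 at the low dose and 11.29 to 11.46 at the high dose, without overlap. The part of these 2 lists in the results was not tested. The mean of the oligodendrocyte list was 7.27 in lesioned dSPN on saline (6.89 to 8.01), 6.24 at the low dose (5.81 to 6.84) and 6.07 at the high dose (5.66 to 6.80), without overlap. Because that mean nearly separates saline from treated dSPN arrays, a fit with it as a covariate cannot tell oligodendrocyte RNA apart from levodopa there. With that mean as a covariate, 15 of the 29 factors called at the high dose were called in the same direction, and 13 of the 27 called at the low dose. The called ones at the high dose included Eef1e1 (1.07, SE 0.17, adjusted p = 6.39e-07), Eif4a1 (0.40), Eif4g2 (0.57), Eif3f (0.47), Eif4b (-0.55) and Eef1akmt2 (-0.93). Eef1akmt1 went to 0.14 (adjusted p = 0.362), Eif1a to 0.10 and Eif4e3 to -0.20. In iSPN the covariate kept all 5 factors called at the high dose, both at the low dose and all 3 with the lesion.

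The arrays fall into 7 runs of animal numbers whose meaning the sources used here do not give. In dSPN the high-dose and saline arrays share a run, with 9 and 6 arrays. Within it the changes were 1.31 for Eef1e1 (SE 0.08, adjusted p = 8.69e-09), 0.54 for Eif4a1, 0.56 for Eif4g2, -0.50 for Eif4b and -0.57 for Eef2k (adjusted p = 0.0401), and 25 of the 29 factors were called the same way. With run as a block in all arrays 26 of the 29 were, the exceptions being Eif2a, Eif5a and Eif5a2. Low-dose and saline dSPN arrays share no run. With run as a block, 8 of the 27 low-dose factors were called, all higher: Eif1a, Eif1b, Eif3f, Eif4a1, Eif4e, Eif4g2, Eef1e1 and Eef1akmt1.

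**Figure D5:**
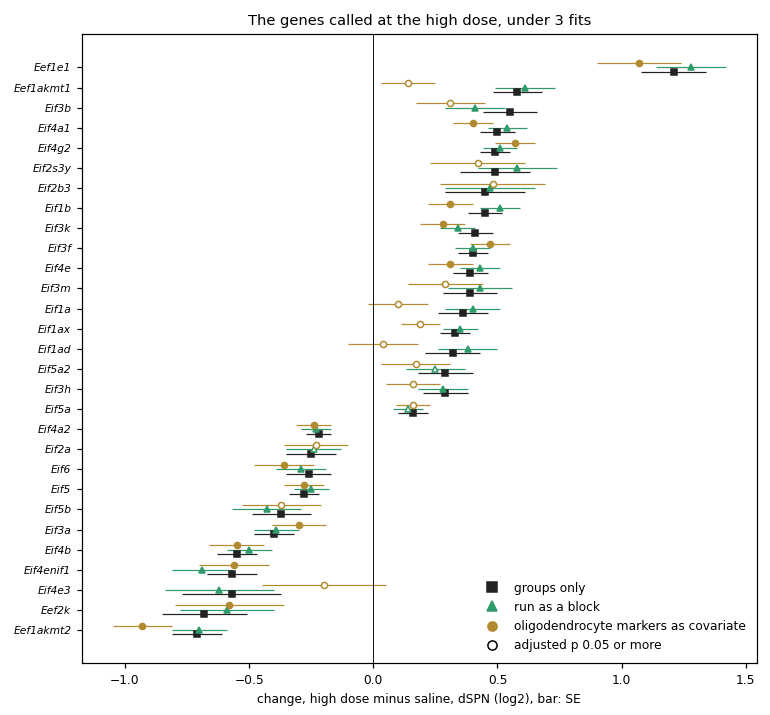
Change at the high dose in dSPN (log2, horizontal axis; bars, SE) for the 29 called factors in the fit on groups, with run as a block and with oligodendrocyte markers as a covariate; open symbols have an adjusted p of 0.05 or more. Run as a block kept 26 calls and the covariate 15.

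The lesion was compared with mock surgery under saline. In dSPN none of the 54 factors was called (limma; 7 at an unadjusted p under 0.05; 2.48% of all genes were called). The lowest adjusted p was that of Eef1akmt1, at 10.01 ± 0.21 (SD, n = 10) in mock and 9.69 ± 0.12 (n = 11) in lesioned mice (change -0.32, limma adjusted p = 0.0965). In iSPN, where 6.2% of all genes were called (3.19% higher and 3.01% lower), 3 factors rose: Eif2s3y by 0.53 (SE 0.16, adjusted p = 0.0362), Eif3c by 0.29 (SE 0.08, adjusted p = 0.0104) and Eif2s2 by 0.21 (SE 0.06, adjusted p = 0.0283). Eif3c ran from 10.48 through 11.16 to 11.40 in mock iSPN, from 11.20 through 11.38 to 11.50 after the lesion and from 10.86 through 11.09 to 11.27 at the high dose. It thus stood higher in lesioned mice on saline than in the other iSPN groups, with overlapping ranges. None of the 3 was called with run as a block, and the effect of the lesion was not called different between the lines for any factor (limma; 11 at an unadjusted p under 0.05; 4.86% of all genes called).

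In iSPN the high dose called 5 factors: Eef1akmt1, Eif1ax (0.46, SE 0.08, adjusted p = 1.96e-05), Eif1b and Eif4g2 were higher and Eif3c was lower by 0.30 (SE 0.08, adjusted p = 0.00978). The 4 that rose also rose in dSPN. At the low dose Eef1akmt1 was higher and Eif3c lower, by 0.27 (SE 0.08, adjusted p = 0.0381). With run as a block no factor was called at the high dose; within the run that 8 high-dose arrays share with 2 saline arrays the changes were 0.51 for Eef1akmt1, 0.33 for Eif1ax and 0.42 for Eif1b, none called.

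The test of whether levodopa acted differently in the lines called 12 factors at the high dose, 8 with a more positive effect in dSPN and 4 with a more negative one (22.2%, against 25% of all genes, 10.5% and 14.5% by direction). At the low dose it called 5 and 1 (11.1%, against 14.8%, 6.99% and 7.79%). Beside Eef1e1, Eif2b3, Eif3f, Eif4a1, Eif4a2 and Eif4e, described above, the high-dose effect was more positive in dSPN for Eef1aknmt (1.07, SE 0.39, adjusted p = 0.0334), Eif3c (0.34) and Eif3k (0.32), and more negative for Eef1akmt2 (-0.50, SE 0.15, adjusted p = 0.00946), Eif4b (-0.36) and Eif2b2 (-0.35). Eef1aknmt is a dim gene, with group means of 4.69 to 5.37, and its second tested probe set had the opposite sign. At the low dose Eef1e1 (0.99, SE 0.21, adjusted p = 0.000279), Eif4a1 (0.44), Eif3f (0.34), Eif3e (0.33) and Eif3k (0.32) had more positive effects in dSPN and Eif4b a more negative one (-0.37). With run as a block 8 of the 12 were called at the high dose and none of the 6 at the low dose. With the oligodendrocyte covariate 9 of the 12 were called, without Eif4a1, Eif3k and Eef1aknmt, and 4 of the 6, without Eif3k and Eif4b.

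Between the lines under mock surgery and saline, 15 factors were higher and 6 lower in dSPN (38.9%, against 22.5% of all genes, 11.6% higher and 10.9% lower). Eif2s2, the eIF2 beta subunit, was 11.29 on average in dSPN and 10.85 in iSPN, without overlap (0.44, SE 0.06, adjusted p = 7.88e-09). Also higher in dSPN were Eef1e1 (0.46, SE 0.14, adjusted p = 0.00959), Eef1akmt2 (0.44, SE 0.10, adjusted p = 0.000633), Eif3a (0.42) and Eef1a2 (0.31), and lower were Eif2d (-0.70, SE 0.22, adjusted p = 0.0131), Eif2b2 (-0.49, SE 0.08, adjusted p = 3.96e-06), Eif4g2 (-0.29), Eef2 (-0.19) and Eef1a1 (-0.16). The elongation factor isoforms thus differed in opposite directions, Eef1a2 ranging from 10.97 to 11.38 in dSPN and 10.45 to 11.26 in iSPN and Eef1a1 from 12.31 to 12.46 and 12.42 to 12.62. No run held arrays of both lines, and the line cannot be told apart from the run. The oligodendrocyte list mean was 7.01 in mock dSPN and 7.87 in mock iSPN, with 10 of 13 markers lower in dSPN, and with it as a covariate 9 of the 21 factors were called the same way, among them Eif2s2, Eif2d, Eif2b2, Eif3a and Eef1a2 but not Eef1e1, Eef1akmt2 or Eef1a1.

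Genes around the factors also moved in dSPN at the high dose, beside 20.1% of all genes higher and 25.5% lower. Cytosolic ribosomal protein genes rose in 36 of 45 cases and none fell; at the low dose 35 rose and 1 fell, and in iSPN 3 and 1 rose at the high and low dose. Of 18 kinases and regulators of translation, 6 rose and 2 fell, led by Mknk2, a kinase of eIF4E (2.11, SE 0.12, adjusted p = 3.16e-26), Rheb, the activator of mTOR (1.83, SE 0.09, adjusted p = 9.88e-30), and Ppp1r15b, a subunit of the eIF2 alpha phosphatase (1.06, SE 0.10, adjusted p = 5.03e-14). Tsc1, which restrains Rheb, fell by 0.89, and Pdcd4, an inhibitor of eIF4A, by 0.45; these were named after their values were seen. Of 13 targets of the integrated stress response 6 rose and 2 fell, with Atf3 at 3.11 (SE 0.25), Ddit3 at 0.99 and Phgdh at -1.34, the last also an astrocyte enzyme.

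Of 11 termination and recycling factors 5 rose and 2 fell, led by the release factor Etf1 (1.39, SE 0.13, adjusted p = 2.50e-15), the ribosome-associated GTPase Gtpbp1 (1.14) and the quality control ligase Ltn1 (-0.64). Of 20 partners of the cap and the poly(A) tail 6 rose and 6 fell, led by Mcts2 (0.69), Ncbp3 (0.67) and Pabpc4 (0.66). Of 21 cytosolic tRNA synthetases 2 rose and 5 fell, led by Eprs (1.3, SE 0.11, adjusted p = 2.02e-16), Iars (-0.70) and Hars (0.43). Of 9 enzymes that make the modified residues of eIF5A and eEF2, 2 rose and 2 fell, the latter being Dph5 (-1.12, SE 0.19, adjusted p = 6.03e-07) and Dph7 (-0.95), both of the diphthamide pathway of eEF2. Of 10 mitochondrial translation factors 3 rose and 1, Mtif2, fell (-0.95). In iSPN at the high dose each of these lists held at most 2 genes called higher and at most 2 called lower.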

How the data were processed

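The authors deposited log2 values for 45101 probe sets on 77 arrays; RMA and affy are named in the submitters' processing notes without versions. Of these, 34958 probe sets had a single gene symbol, 932 several and 9211 none, by the platform annotation; a gene table (GRCm38.p6) changed 0 symbols. Array medians ran from 4.31 to 4.42. The median correlation of each array with the others of its group ran from 0.939 to 0.98. Each gene was represented by its brightest probe set, and the 13271 genes averaging over 3.55, the 40th percentile among probe sets, were tested.

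Group means were fitted for all 8 groups with limma 3.58.1 (R 4.3.3; 69 residual degrees of freedom), with Benjamini-Hochberg adjustment over all tested genes within each of 12 comparisons. All groups of both lines shared 1 estimate of the spread for each gene, so an SE differs between comparisons only by the numbers of arrays. The median SE was 0.15 for the high dose in dSPN and 0.18 in iSPN. The lowest median correlation of an array with its group was 0.969 in dSPN and 0.939 in iSPN, so SEs for iSPN may be too small. With each line fitted alone, 3 of the 5 high-dose calls in iSPN were kept, and none at the low dose or with the lesion. The fit was also tried on simulated data of 13271 genes. For the high dose in dSPN it recovered 22.4%, 50.7% and 95.5% of changes of 0.3, 0.5 and 1 on the log2 scale. For iSPN these were 13.4%, 31.3% and 66.7%. Changes of these sizes were planted in only 67, 67 and 66 genes. On the real arrays 45.6% of genes were called at the high dose in dSPN, so the simulated shares need not hold there. In these simulations false calls made up 1.8% of the calls for dSPN and 6.3% for iSPN. Any factor could be named; full statistics went to the largest called changes of each comparison and a panel of 20 factors, 17 of them measured, and up to 3 called genes were named per pathway list. The members and lists were chosen with earlier results of these data known. Promoters of 43 factors came from RefSeq (GRCm38.p6), matched by symbol; 6 had several starts.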

Additional observations from a re-analysis of the deposited data

Results flagged for a closer look

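For the 17 measured factors of the panel, the 5 groups of 10 or fewer arrays were tested for an array apart from the rest by Dixon's criterion, and the larger groups were not. Of these 85 tests 5 met it, where chance gives about 1 in 20. In mock dSPN, replicate 9 had the highest value of Eif4a1 (11.35, the next being 11.06) and of Eif4e (10.64, the next 10.31). In iSPN, Eif4a2 stood at 12.11 in low-dose replicate 3 (the next 11.92) and at 11.82 in high-dose replicate 5 (the next 11.98), and Eef1b2 at 11.54 in high-dose replicate 4 (the next 11.35).

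The effect of levodopa differed between the lines, by the limma interaction test, for 3 panel genes. For Eif4a1 the difference was 0.33 at the high dose (0.50 in dSPN and 0.17 in iSPN, adjusted p = 0.0130; 0.26, adjusted p = 0.0678, with the oligodendrocyte covariate) and 0.44 at the low dose (0.42 and -0.03, adjusted p = 0.00115). For Eif4a2 it was -0.34 at the high dose (-0.22 and 0.11, adjusted p = 0.000671), and for Eif4e 0.41 (0.39 and -0.01, adjusted p = 0.00468). The Eif4e difference was not called on the next brightest probe set (-0.02, adjusted p = 0.926) or on the mean of the probe sets (0.12, adjusted p = 0.438).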

How the results depend on the processing

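Of the 29 factors called at the high dose in dSPN, 11 were called under every alternative run: Eef1akmt2, Eef1e1, Eef2k, Eif1b, Eif3f, Eif3k, Eif4a1, Eif4a2, Eif4b, Eif4enif1 and Eif4g2. At the low dose 5 of 27 were (Eef1e1, Eif1b, Eif3f, Eif4a1 and Eif4g2), between the lines 5 of 21, for the high-dose difference between the lines 4 of 12, and elsewhere none. Counts of called factors that moved were these; the cause was not tested. With run as a fixed block, 8 were called at the low dose in dSPN, 0 between the doses in dSPN, 0 for the lesion and 0 for the high dose in iSPN, and 1 for the low-dose difference between the lines. Within a single run 0 were called between the doses in dSPN and 0 at either dose in iSPN. With the oligodendrocyte mean as a covariate 16 were called at the high dose and 13 at the low dose in dSPN, and 11 between the lines. With each line fitted alone 1 was called for the lesion in dSPN, 3 between the doses in dSPN, 0 for the lesion in iSPN, 3 at the high dose and 0 at the low dose in iSPN. Array weights gave 3 for the lesion in dSPN, 3 between the doses in dSPN, 1 at the low dose in iSPN, 1 for the lesion difference between the lines and 10 for the low-dose difference. Leaving out the least correlated array of each group gave 1 at the low dose in iSPN and 1 for the lesion difference. The mean of a gene's probe sets gave 3 between the doses in dSPN and 0 for the lesion in iSPN. The probe set with the largest interquartile range gave 0 for the lesion, 3 at the high dose and 1 at the low dose in iSPN and 3 for the low-dose difference. Between the doses in dSPN, normalizing again and a variance trend gave 2 each; the trend gave 1 for the lesion difference, and a random run block 1 between the doses in iSPN.

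Directions turned only with the choice of probe set. On the mean of probe sets the high-dose change in dSPN was -0.01 for Eif1ax and 0.12 for Eif6, and the line difference of Eif3c was -0.02. On the probe set with the largest interquartile range the high-dose changes in dSPN were -0.07 for Eif1ax, 0.11 for Eif5, -0.08 for Eif4e and 0.49 for Eif6, the line difference of Eif3c was -0.19, and the high-dose differences between the lines were -0.05 for Eif3c, -0.15 for Eif4e and -0.80 for Eef1aknmt. Normalizing again gave 17 higher and 15 lower factors at the high dose in dSPN. No paired analysis was possible because replicate numbers were given in accession order and pair no mice. Single-run values were not run where no run held at least 2 arrays of both groups, nor was a run block for the comparison of lines.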
